A study of Rattus norvegicus with 6 samples.

Results

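Genes of the red cell membrane and of heme synthesis were examined in cells from rat long bone. The set was defined as 8 gene symbols, Rhd, Rhag, Epb42, Sptb, Slc4a1, Kel, Ermap and Alas2, and a gene was measured where the array annotation gave a row that symbol alone. Of these 8 genes, 6 had such a row, out of 14506 genes measured in this way. Kel and Ermap were not named by the annotation used and are not analysed here.

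Bone cells were released from Sprague Dawley rats 2 to 5 days old and let attach to plastic coated with mouse prothrombin (PT), the precursor of thrombin, or with osteopontin (OPN) from bovine milk, a phosphoprotein of bone matrix. Their RNA was hybridised to Affymetrix Rat Gene 1.0 ST arrays, 3 for PT (replicates 1, 2 and 4) and 3 for OPN (replicates 2, 3 and 4). No genotype or drug differed between the groups, and nothing in the labels ties an array to an animal or a separate preparation. The p-values therefore measure nothing beyond how far these particular arrays scatter, and that scatter may be technical. The cells were a mixture picked by adhesion, so in these bulk samples fewer cells of a type and less RNA per cell cannot be told apart.

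Red cells are made in the marrow from erythroblasts, which divide, fill with hemoglobin and expel their nucleus while clustered around a central macrophage. Their membrane is tied to a spectrin skeleton by a complex in which band 3, the anion exchanger, binds ankyrin and protein 4.2, and the Rh proteins sit in that same complex. Heme for hemoglobin is built from glycine and succinyl-CoA in a chain of enzymes that begins and ends in the mitochondrion. GATA1 and KLF1 are the transcription factors best known for switching these genes on.

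Motifs of these factors were looked for in the 250 bases before each gene's start, because both are known for driving red cell genes. Promoter sequences of RefSeq (GRCr8) were held for 7 of the 8 genes, all but Slc4a1. A GATA motif, searched on both strands as AGATAA or with a final G as AGATAG, and with a leading T as TGATAA or TGATAG, lay in all 7 of them, and 27% of all 33469 promoters held at least 1. A CACCC motif, searched as CCACCC or CACACCC on both strands, lay in 2 of the 7, Rhd and Sptb, against 30.2% of all promoters. No stretch printed here overlaps a CACCC match with its GATA letters, forms of 1 motif may overlap each other, and a promoter was counted once. A match describes the sequence without showing that a factor binds there. For the 5 measured genes the match nearest the start is shown on the gene's strand, with the motif in capitals (CTATCA and TTATCA are motifs read from the opposite strand).
Rhd: cgggtgtctctcCTATCActccttcaagtg
Rhag: agtctcctgctcTTATCAacactgcacagc
Epb42: agctggtctaggAGATAGcagcagggaggg
Sptb: atgtccctcctcAGATAAtgttatttatat
Alas2: ccttgctgagaaAGATAAtgaggggggaat
The Rhd stretch is chr5:152371143-152371172 on the plus strand, and its motif begins 45 bases before the start. The Rhag stretch is chr9:27594404-27594433 on the minus strand, with the motif beginning 31 bases before the start. For Epb42, at chr3:128451748-128451777 on the minus strand, and Sptb, at chr6:101170318-101170347 on the minus strand, these distances were 82 and 57 bases. The Alas2 stretch is chrX:22895302-22895331 on the plus strand, with the motif beginning 136 bases before the start. The start used for Alas2 lies 4800 bases inside the gene's outer boundary, so this stretch is within the annotated gene. For Sptb the start lies 111 bases inside, so its stretch is also within the annotated gene. For Rhd the start lies 40 bases inside, and its stretch spans the outer boundary. For Kel and Ermap, which count among the 7, the start lies 524 and 182 bases inside. Their GATA matches begin 116 and 68 bases before it, so these too are within the annotated gene.

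All 6 measured genes had lower signal on OPN than on PT, by 13.3% to 21.5%, and in each of them every OPN array lay below every PT array. In limma's test 4 of the 6 fell on OPN, Rhd, Rhag, Epb42 and Sptb, and 0 rose (at an unadjusted p of 0.05, 6 were lower and 0 higher). Slc4a1 and Alas2 did not pass. Over all 14506 genes 5.49% were lower and 17% higher at that unadjusted p, the shares against which the unadjusted counts of every list below are to be read. Of all 14506 genes, 1.12% were called lower and 7.62% higher on OPN (0.77% and 5.05% of all 29215 rows), and 8.77% had every OPN array below every PT array against 21.6% above (7.4% and 16.3% of all rows). Of the calls over all rows 86.8% were higher on OPN, a share of 68.1% once array medians were made equal and of 64.6% after quantile normalisation. The adjusted p of the 4 called genes lay between 0.0205 and 0.0486. Without PT replicate 2, PT replicate 4, OPN replicate 2 or OPN replicate 4 the test called 0 of the 6 lower, without OPN replicate 3 it called 1, Rhd, and without PT replicate 1 it called 4. With the replicate number as a block it also called 0, although every difference stayed below 0 (log2 differences from -0.42 to -0.29). PT replicate 1 and OPN replicate 3 have no counterpart of the same number, so the differences of that fit rest on replicates 2 and 4 alone. The arrays it thus sets aside are those between which the coatings came closest for these genes.

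**Figure D1:**
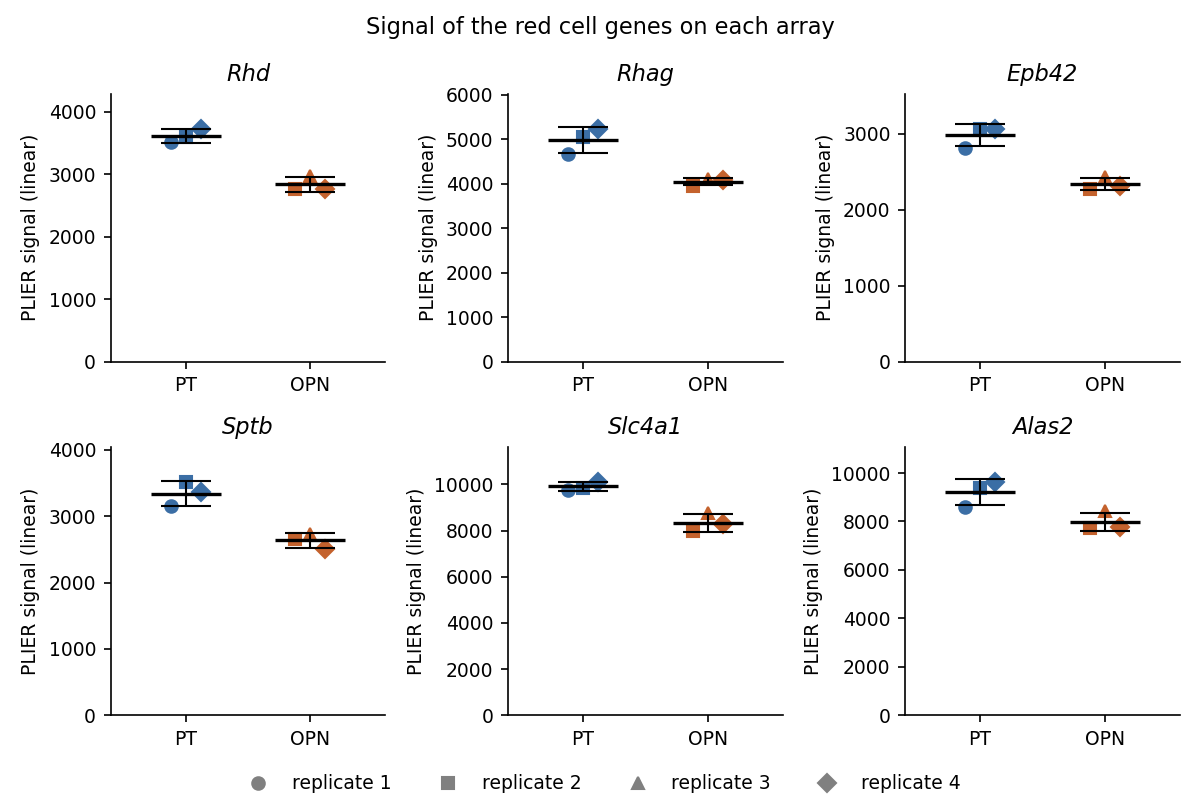
Linear PLIER signal (vertical axes, from 0) of the 6 measured genes on the 3 PT arrays (blue) and the 3 OPN arrays (orange), with marker shapes for replicate numbers, long bars for means and error bars for SD (n = 3). In all 6 panels the highest OPN array lies below the lowest PT array, with the narrowest gap, 190.4 units, for Alas2.

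Rhd, the rodent gene of the Rh blood group protein, had signals of 3520, 3597 and 3734 on PT and of 2769, 2982 and 2765 on OPN. The groups were set apart by 538.3 units, more than the spread inside either of them. The log2 difference was -0.35 (SE 0.07, 95% confidence interval -0.51 to -0.19), a 1.27-fold lower level on OPN (adjusted p = 0.0205 in limma). Rhag encodes the Rh-associated glycoprotein, an ammonia channel that the Rh protein needs to reach the membrane. Its signals were 4675, 5055 and 5246 on PT and 3958, 4108 and 4088 on OPN. PT replicate 1 was the lowest of its group and still lay above all OPN arrays. Rhag was 1.23-fold lower (log2 difference -0.30, SE 0.07, adjusted p = 0.0486), a call that was lost with an offset of 1 in place of 16 (adjusted p = 0.0641). The gene has 2 rows with identical values on all 6 arrays, so they count as 1 measurement.

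Slc4a1, which encodes band 3, was the brightest of the 6, at 9757, 9860 and 10113 on PT and at 7966, 8742 and 8276 on OPN. Its OPN arrays spread more widely than its PT arrays, by 9.74% against 3.64% from lowest to highest. The 1.19-fold difference (log2 -0.25, SE 0.07) did not pass (adjusted p = 0.0797), and it passed with an offset of 64 (adjusted p = 0.0343), with equal array medians (adjusted p = 0.0379) and among rows brighter than the median row (adjusted p = 0.0214). Epb42 encodes protein 4.2, which holds band 3 to ankyrin. Its signals were 2821, 3072 and 3067 on PT and 2273, 2434 and 2316 on OPN. They were separated by 387.8 units, and the gene was 1.27-fold lower on OPN (log2 -0.35, SE 0.07, adjusted p = 0.0236).

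Sptb encodes the beta chain of spectrin, the rod that forms the skeleton beneath the membrane. It had signals of 3149, 3519 and 3357 on PT and of 2655, 2736 and 2511 on OPN, without overlap. It was 1.27-fold lower on OPN (log2 -0.34, SE 0.07, adjusted p = 0.0320). Alas2, the erythroid enzyme of the first and rate-limiting step of heme synthesis, had 8609, 9367 and 9641 on PT and 7751, 8418 and 7771 on OPN. OPN replicate 3 came within 190.4 units of PT replicate 1, less than the spread inside either group. The log2 difference of -0.21 (SE 0.08, 95% confidence interval -0.38 to -0.03) did not pass (adjusted p = 0.196) and did not pass under any other setting tried, with adjusted p between 0.0743 and 0.450.

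Arrays of 1 coating also differed in a way the 6 genes shared. PT replicate 1 was the lowest PT array for 6 of 6, against 29.4% of all genes, and OPN replicate 3 was the highest OPN array for 6 of 6, against 43.7% of all genes. The coatings therefore came closest between these 2 arrays. This order was not particular to the 6. Most of the other erythroblast genes counted below shared it, with exceptions such as Tspan33 and Bpgm. The beta globin gene Hbb shared it too, at 21292, 25311 and 23891 on PT and at 21293, 22489 and 20653 on OPN. Over the 6 arrays, log2 values centred per gene were most alike for Rhd and Epb42, with a root mean square difference of 0.029, and least alike for Sptb and Alas2, at 0.080. Whether the fall differed between members was not tested, and the 95% confidence intervals of all 6 overlap.

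Among all rows of an array these genes were bright, and they stood lower in that order on OPN. All 6 lay within the brightest 5% of the 29215 rows on every array, and Slc4a1 and Alas2 within the brightest 1%, which Rhag also reached on PT replicate 2. Slc4a1 ranked 48, 59 and 62 on the PT arrays and 96, 88 and 85 on the OPN arrays, where 1 is the brightest row. Alas2 ranked 69, 72 and 71 on PT and 106, 100 and 97 on OPN. Rhag moved from ranks between 288 and 303 to ranks between 401 and 444, and Rhd from between 494 and 528 to between 680 and 714. Sptb went from 517 to 605 on PT to 756 to 782 on OPN, and Epb42 from 613 to 689 to 868 to 902. No rank on OPN overlapped one on PT for any of the 6, and a rank does not change when an array is rescaled. Probe sets differ in brightness for the same amount of RNA, so a rank is not an abundance and ranks of different genes do not order their transcripts.

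**Figure D2:**
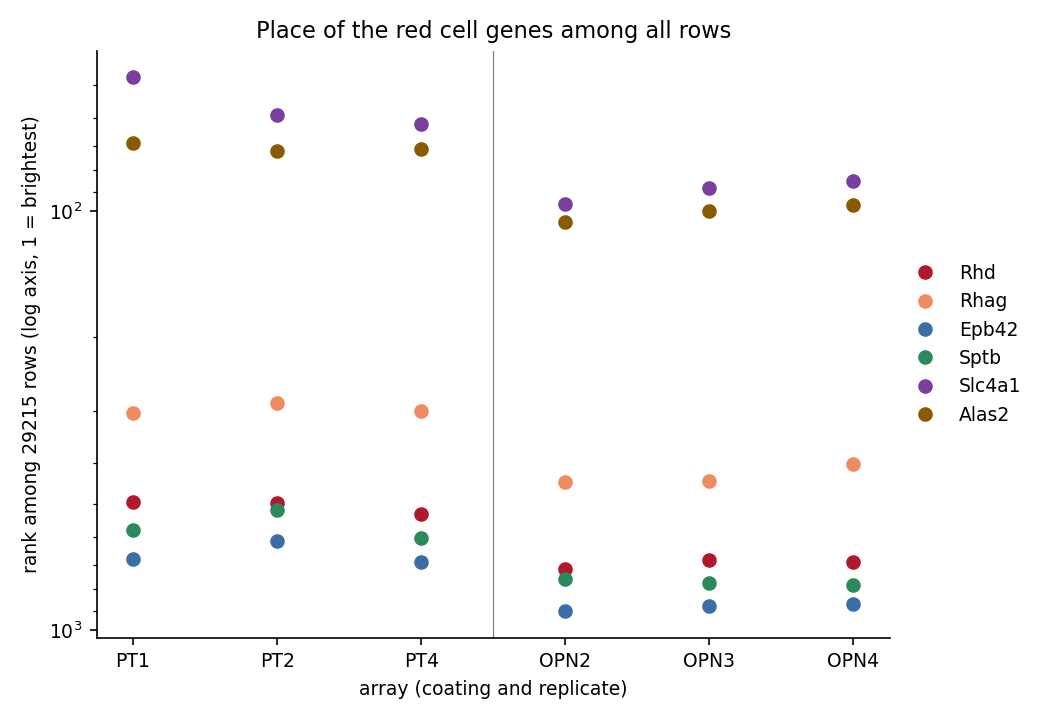
Rank of each measured gene among the 29215 rows of an array (vertical axis, logarithmic, brightest at the top) on each PT and OPN array (horizontal axis). Each of the 6 genes stands lower on all 3 OPN arrays than on all 3 PT arrays, for example Slc4a1 at 85 to 96 against 48 to 62.

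A fall in rank also comes from rows that rise past a gene. Between the coatings 20 rows passed Slc4a1, above it on every OPN array and on no PT array, and 5 of them were called higher on OPN. For Rhd 122 rows passed it, 18 of them called higher. In the other direction 0 rows passed Slc4a1 and 1 passed Rhd. Together the 6 genes made up 0.397% ± 0.0077 of the summed signal of the brightest 10% of rows on OPN and 0.481% ± 0.0094 on PT (SD, n = 3). That share was 0.388%, 0.401% and 0.402% on the OPN arrays and 0.481%, 0.491% and 0.472% on the PT arrays, again without overlap. The summed signal itself ran from 27372 to 29420 on OPN and from 32532 to 35157 on PT. Of the brightest 10% of rows, 2.88% were called lower and 6.33% higher on OPN, and 17.7% had every OPN array below every PT array against 16.1% above.

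Other proteins of the red cell membrane and skeleton were counted from a list of 28 genes, of which 19 were measured. In limma's test 4 fell on OPN and 2 rose, with a median log2 difference of -0.22 beside 0.04 over all genes (14 lower and 3 higher at an unadjusted p of 0.05). Ank1, which encodes the ankyrin that ties band 3 to spectrin, fell by 0.38 on the log2 scale (SE 0.07, adjusted p = 0.0191), from 3233 ± 206 on PT to 2475 ± 79.6 on OPN (SD, n = 3). Dmtn, the gene of the actin-bundling protein dematin, fell by 0.36 and Xk, which encodes the membrane partner of the Kell protein, by 0.35. Kcnn4, the gene of a calcium-activated potassium channel, fell by 0.33, and the adjusted p of these 3 lay between 0.0150 and 0.0362. The genes that rose were Bsg (0.57), which encodes basigin, and Slc2a1 (0.35), a glucose transporter gene. Which cells gave the signal of the genes in this list, fallen or risen, was not tested. The structural genes Add1 (-0.23), Add2 (-0.26), Tmod1 (-0.22) and Epb41 (-0.20) and the water channel gene Aqp1 (-0.22) lay below 0 without a call. The third adducin gene, Add3, lay on the other side at 0.30 (SE 0.08, adjusted p = 0.0783) and was called higher without PT replicate 4 (adjusted p = 0.0359). The list held 3 higher calls in that fit, and also with offset 64, among rows brighter than the median row and with an intensity trend in limma's test. All 4 lower calls were lost without any 1 of the OPN arrays and without PT replicate 4, and 1, Xk, held without PT replicate 2. The higher calls of Bsg and Slc2a1 were both lost without OPN replicate 3, and that of Slc2a1 also without OPN replicate 2.

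The enzymes that follow Alas2 were read in the order of the pathway. Alad, the gene of the second enzyme, fell by 0.36 (SE 0.07, adjusted p = 0.0180), from 2226 ± 99.7 to 1730 ± 56.6 (SD, n = 3). Uros fell by 0.33 (adjusted p = 0.0343), Urod lay at -0.30 without a call (adjusted p = 0.0643), and Cpox, which encodes coproporphyrinogen oxidase, fell by 0.30 (adjusted p = 0.0388), a call lost whichever array was left out. The last enzymes of the chain, encoded by Ppox (-0.27) and Fech (-0.28), did not pass (adjusted p = 0.0827 and 0.124). All 7 measured enzyme genes of the erythroid chain, Alas2 included, thus lay between -0.36 and -0.21. Alas1, the housekeeping counterpart of Alas2 that other cells use for the same step, had 662.8 ± 37.4 on OPN and 662.5 ± 41.1 on PT (SD, n = 3). Its log2 difference was 0.00 (SE 0.08, adjusted p = 0.998). With array medians made equal or after quantile normalisation Alas1 stood at -0.06. The difference between Alas1 and Alas2 was not tested.

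The mitochondrial carriers and helpers of the chain spread more widely. Abcb10, a transporter of the inner mitochondrial membrane that erythroid cells need for heme synthesis, fell by 0.36 (SE 0.06, adjusted p = 0.0108). Mitoferrin 1, encoded by Slc25a37, lay at -0.23, the porphyrin carrier gene Tmem14c at -0.22 and the iron-sulfur gene Glrx5 at -0.21, none of them called, and Fdx2 lay at 0.11. Of the whole heme list, 16 of 21 genes were measured, 4 had lower calls and 0 higher ones, and the median difference was -0.23 (11 and 0 at an unadjusted p of 0.05). Without OPN replicate 2 or OPN replicate 3 the test called 0 of them, without OPN replicate 4, PT replicate 2 or PT replicate 4 it called 1, Abcb10. Either scaling, to equal array medians or by quantiles, called 7.

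**Figure D3:**
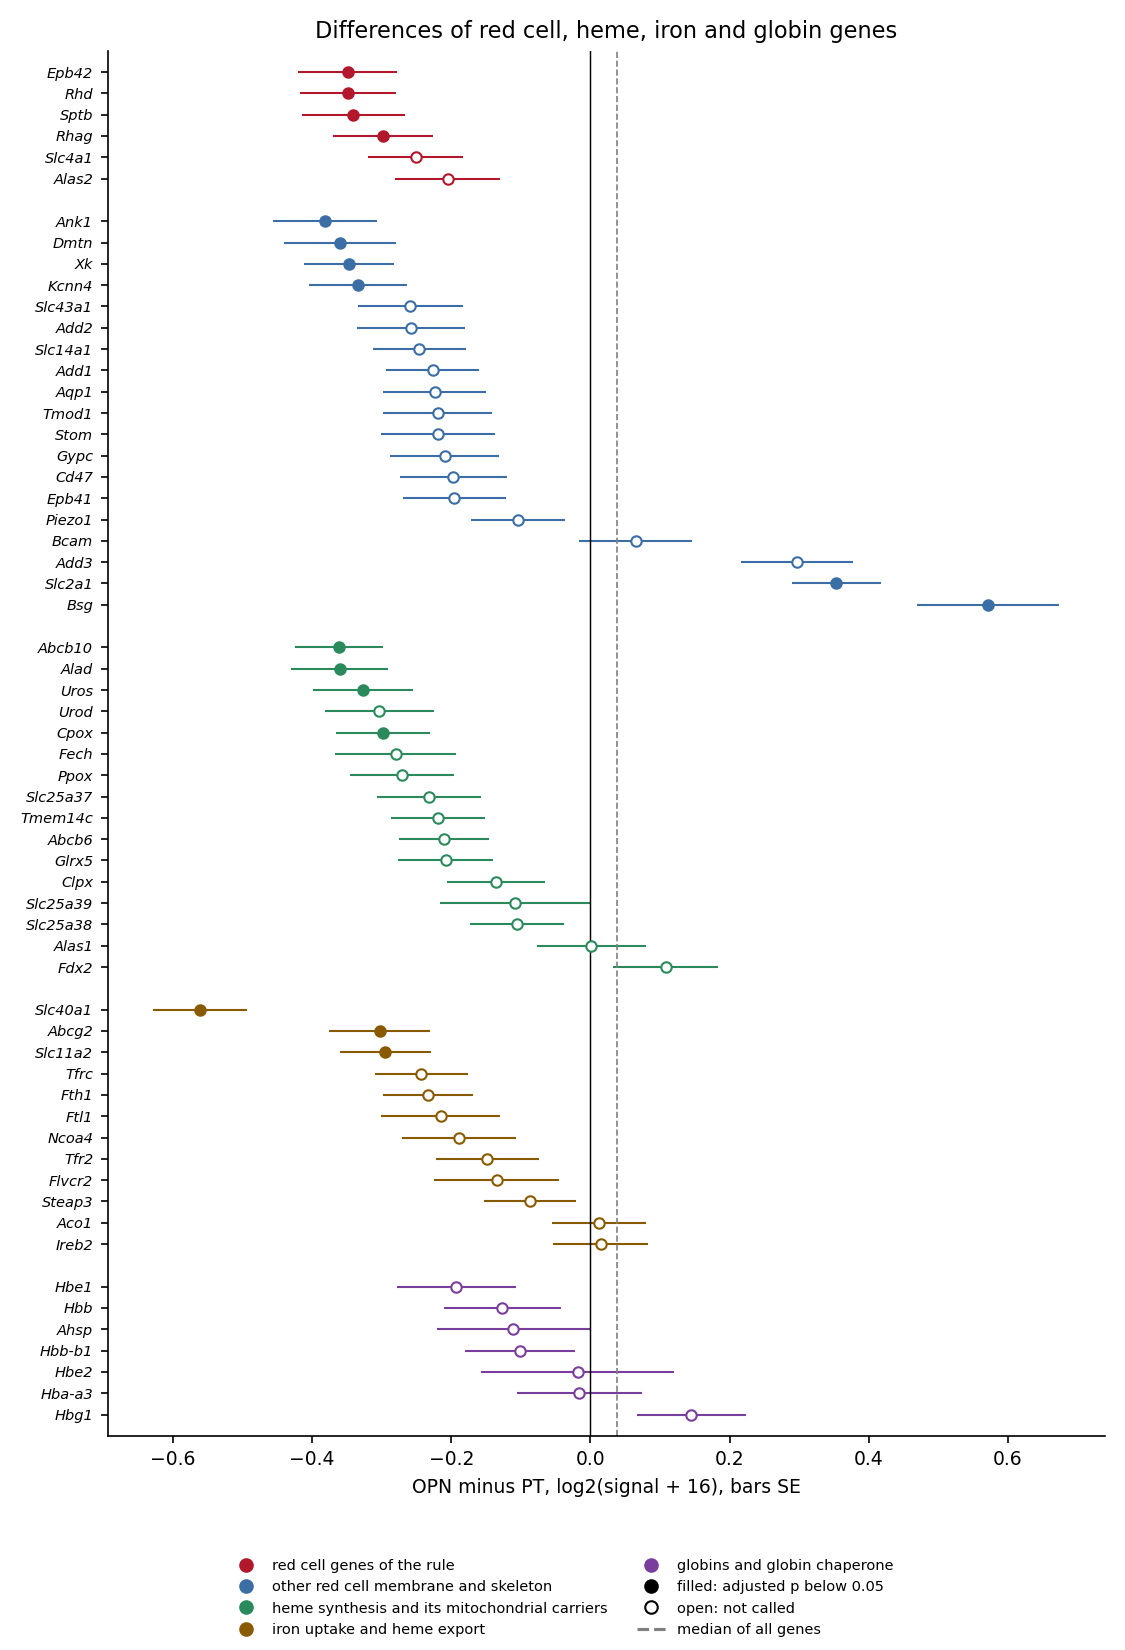
Difference of OPN minus PT on the log2(signal + 16) scale (horizontal axis, bars SE) for every measured gene of the red cell set and of 4 lists around it, filled where the adjusted p is below 0.05, with a dashed line at the median of all genes. The 6 red cell genes and the 7 enzyme genes of the erythroid heme chain lie left of 0, Alas1 lies at 0, and Bsg (0.57) and Slc2a1 (0.35) lie on the other side.

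Among genes of iron handling, Slc40a1, the iron exporter ferroportin, fell by 0.56 (SE 0.07, adjusted p = 0.00140), from 4036 ± 37.4 on PT to 2732 ± 122 on OPN (SD, n = 3), and kept its call whichever array was left out. It is expressed by erythroblasts and strongly by macrophages that recycle iron. Slc11a2, an importer of iron from endosomes, fell by 0.29 and the heme exporter gene Abcg2 by 0.30 (adjusted p = 0.0355 and 0.0486), but the call of Slc11a2 was lost whichever array was left out and that of Abcg2 held only without PT replicate 1. Tfrc, the transferrin receptor through which erythroblasts take up iron, lay at -0.24 without a call (adjusted p = 0.0829). Of 12 measured genes in the list 3 fell and 0 rose (7 and 0 at an unadjusted p of 0.05), with a median of -0.20.

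Globin genes did not pass the test. Of 7 measured genes of globins and their chaperone, 0 were called in either direction in limma's test, and 0 at an unadjusted p of 0.05, with a median of -0.10 that turned to 0.01 without PT replicate 4. Another 8 of the 15 genes in this list had no row. The beta globin genes Hbb and Hbb-b1 had log2 differences of -0.13 (SE 0.08) and -0.10 (SE 0.08). Hbb, rank 5 among all rows by its mean, had 21478 ± 932 on OPN and 23498 ± 2038 on PT (3 arrays each, SD). Its difference turned to 0.02 with quantile normalisation. Hba-a3, an alpha globin gene, stood at -0.02 (SE 0.09), and Ahsp, whose product holds free alpha globin, at -0.11 (SE 0.11), and both changed sign in at least 1 setting. The far dimmer genes Hbe1 (-0.19), Hbe2 (-0.02) and Hbg1 (0.15) are embryonic or fetal by name, and Hbe2 changed sign too. Globin genes are close copies of each other, so their rows may share signal. Whether the globin genes moved less than the membrane genes was not tested.

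Regulators of red cell formation lay between these groups. Among 17 measured transcription factors and receptors, 0 were called in limma's test (7 lower and 0 higher at an unadjusted p of 0.05), with a median of -0.14. Gfi1b (-0.28, adjusted p = 0.0531) and Tal1 (-0.32, adjusted p = 0.0698), which encode factors of the erythroid and megakaryocytic lines, came closest, followed by the heme-sensing repressor gene Bach1 (-0.27) and Foxo3 (-0.24). Klf1 stood at -0.28 (SE 0.10) and Gata1 at -0.15 (SE 0.11), neither called. With equal array medians 4 of the 17 were called lower and with quantile normalisation 6. In a list of other erythroblast genes 2 of 19 fell, Fhdc1 (-0.35) and the tetraspanin gene Tspan33 (-0.32), and 0 rose (12 and 0 at an unadjusted p of 0.05). The call of Tspan33 was lost whichever array was left out, and that of Fhdc1 held only without PT replicate 1. Slc25a21 (-0.31, adjusted p = 0.0508) and Pklr (-0.24), the pyruvate kinase gene of red cells, followed them.

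Markers of other cells moved on the same arrays, and their part in the values above was not tested. Of the 15 measured markers of erythroblast island macrophages 9 fell and 0 rose (11 lower and 1 higher at an unadjusted p of 0.05), with a median of -0.42, and the smallest p were those of Mrc1 (-0.79), Cd163 (-0.87), Axl (-0.68) and Adgre1 (-0.58). Of the same 15, Itgam (0.24), Cd68 (0.18) and Csf1r (0.12) lay above 0 without a call. The summed signal of the 15 ran from 10680 to 11334 on OPN and from 14382 to 15137 on PT. Cell cycle genes, which dividing erythroblasts share with other dividing cells, held 0 calls among 20 measured (13 lower and 0 higher at an unadjusted p of 0.05), with a median of -0.20, Aurka (-0.28) and Mcm6 (-0.24) having the smallest p, and all 20 lay below 0. In the other direction 13 of 13 measured osteoblast and stromal markers rose (median 2.47), 7 of 9 osteoclast markers (median 1.74) and 7 of 7 megakaryocyte and platelet markers (median 0.74). Of the 15 genes in the megakaryocyte and platelet list, 8 had no row. Summed signals of these 3 lists ran from 60236 to 67284, 22058 to 24810 and 6211 to 6771 on OPN, against 11614 to 12485, 3973 to 4310 and 3166 to 3504 on PT. Neutrophil markers gave 0 calls of 14 (5 higher and 0 lower at an unadjusted p of 0.05, median 0.17), with summed signals of 17377 to 19535 on OPN and 12035 to 19031 on PT. Lymphocyte markers gave 1 of 10, Cd4 (-0.41), which rat macrophages also carry, with 3225 to 3356 on OPN and 3338 to 3539 on PT. None of the measured markers was at 0 on any array.

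**Figure D4:**
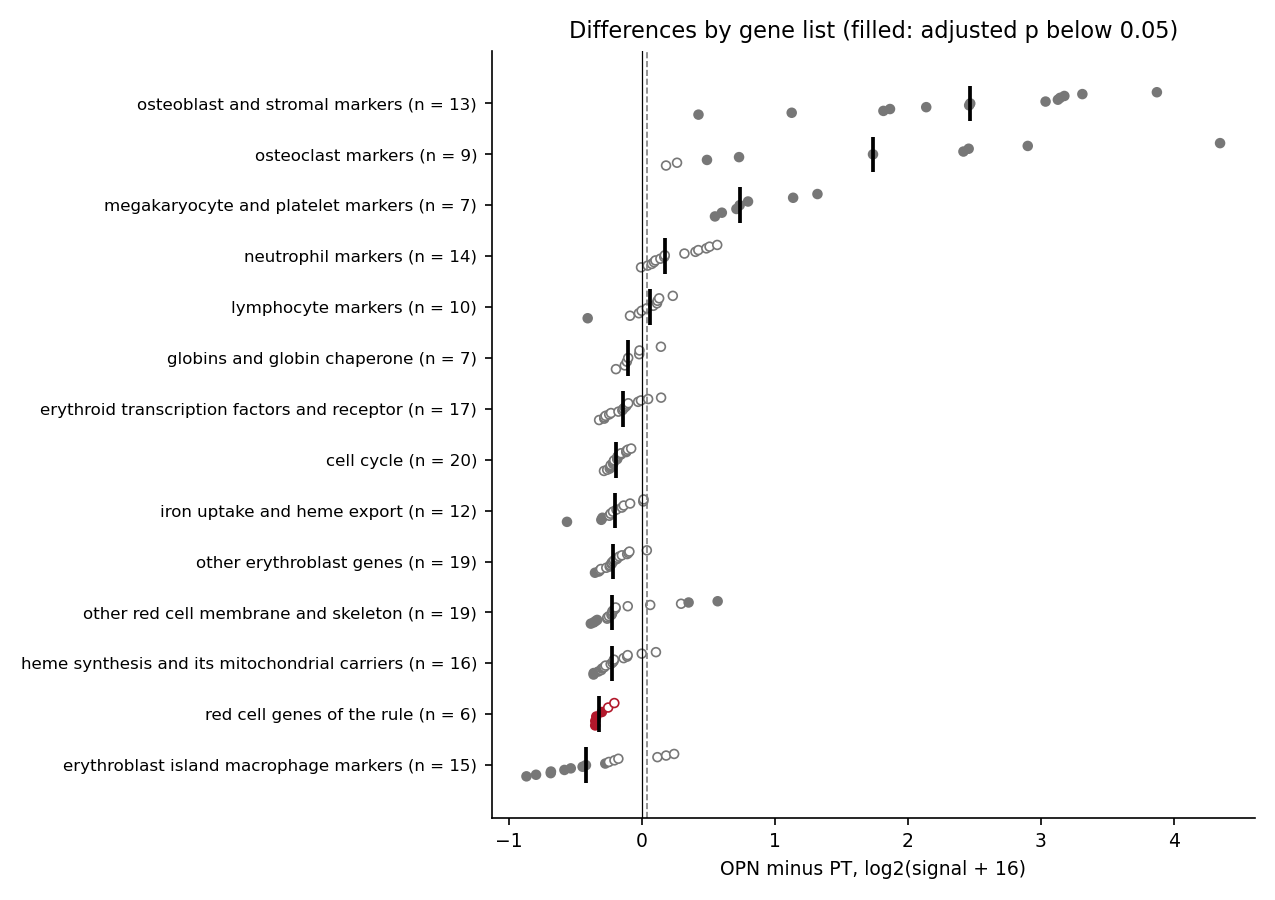
Difference of OPN minus PT on the log2(signal + 16) scale (horizontal axis) for each measured gene of 14 lists (points, filled where the adjusted p is below 0.05), with the list median as a black bar and the median of all genes as a dashed line. The red cell genes (median -0.32) lie beside the heme, membrane and erythroblast lists, between the island macrophage markers (-0.42) and the globins (-0.10), and away from the stromal and osteoclast markers (2.47 and 1.74).

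The genes whose pattern was most like that of the 6 were sought among the 235 other genes at least as bright as the dimmest of them, by the root mean square difference of centred log2 values from the mean of the 6 over the 6 arrays. Closest was Pttg1 (0.023), which encodes securin, a guard of sister chromatids in mitosis, followed by Rrm2 (0.027), a subunit gene of ribonucleotide reductase, and the linker histone gene H1f1 (0.032). Usp7 (0.034), a deubiquitinase gene, Urod (0.035), the heme enzyme gene described above, and Fth1 (0.040), the ferritin heavy chain gene, came next. The 6 genes themselves lay between 0.027 and 0.050 from their mean, and the median of the 235 was 0.153. Each of the 6 is part of that mean and the 235 are not, which makes the distances of the 6 smaller. The OPN minus PT differences of these genes ran from -0.32 for H1f1 to -0.23 for Fth1.

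**Figure D5:**
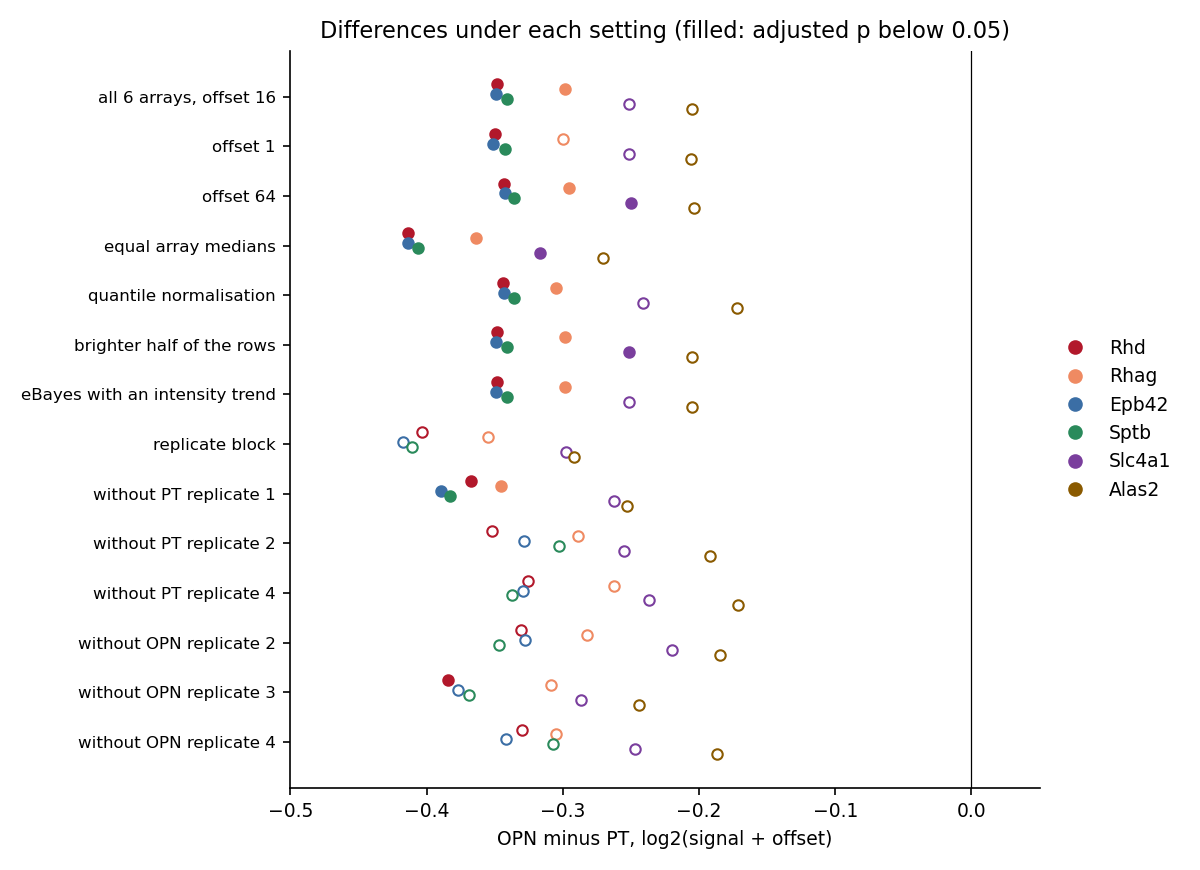
OPN minus PT difference of the 6 red cell genes on the log2 scale (horizontal axis) under each setting (rows), filled where the adjusted p is below 0.05. All values lie below 0, between -0.42 and -0.17, while the number of filled points runs from 0 to 5 of 6.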

How the data were processed

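The deposited table holds 1 linear intensity per probe set and array, made by the authors in Expression Console by PLIER, which summarises the probes of a set, per the submitters' processing notes. Per the labels' protocols 300 ng of RNA was labelled without removing ribosomal RNA. The versions, the background correction and any scaling between arrays were not given in the sources used here. No value lay below 0, and array medians ran from 207.8 to 231.4, so the deposited values do not share 1 distribution. No detection calls were used, and any background left in the values would make folds smaller.

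Of 29215 rows, 15310 had 1 symbol in the platform annotation, 323 several and 13582 none. A gene took its row of highest mean over the 6 arrays. Correlations across rows were at least 0.988 within a coating and at most 0.979 between coatings. Values were used as log2(intensity + 16), on which scale folds are slightly understated. Each row's OPN minus PT difference came from limma 3.58.1 (R 4.3.3; lmFit, then eBayes), with Benjamini-Hochberg adjustment over all rows. Fell and rose are used of genes with an adjusted p below 0.05. The fit was tested on simulated data, where it missed most of the smallest changes tried, which were of about the size of the uncalled members. Far fewer rows were changed there than were called here, which makes the adjusted threshold stricter, so real changes of that size may be missed less often. A gene without a call is still not shown to be unchanged.

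The members and the 13 lists around them (232 genes, 177 measured) were chosen with earlier results of these data known. Named genes are all members, all globins, up to 4 genes per list with the smallest p, every called gene of a list with at most 5 calls, and the 6 most alike genes. Others were named after their values were seen, to follow the pathway. Replicate numbers were not used to pair arrays. Alternatives were other offsets (1 and 64), scalings, a filter, an intensity trend, the other row of a gene, the replicate block and each array left out. Every column was used, and the planned comparison of Rhd and Rhag proteins was not made.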

Additional observations from a re-analysis of the deposited data

How the results depend on the processing

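Precision is limited by 3 arrays per coating, and the signal over background is unknown. None of the 84 differences of single members under other settings changed sign: 57 kept their side of the threshold, 24 lost it and 3 gained it. The outcome of 1 setting, the other row of a gene, was fixed, because 5 members have 1 row and the 2 rows of Rhag are identical. Its 6 differences repeat the main fit and are among the 57. The count of members called lower, 4, was 3 with offset 1 and 4 or 5 with the other offset, the scalings, the filter and the trend. It was between 0 and 4 when 1 array was left out, with 5 or 6 members at an unadjusted p below 0.05. With the replicate block, where the differences rest on replicates 2 and 4 alone, it was 0 (6 at an unadjusted p below 0.05). The cause of these changes in the count was not tested. Left-out fits have fewer arrays and the block fit has fewer residual degrees of freedom, and the count also differed by which array was left out. Deviations of same-numbered arrays correlated at -0.082 (replicate 2) and 0.068 (replicate 4). These values were not set against those of differently numbered arrays, so whether same-numbered arrays shared a preparation is not known. The count called higher stayed 0 throughout. The share of summed signal on OPN over that on PT was 0.825, and 0.807 over all rows.

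Over all rows 225 were called lower and 1475 higher, and 560 and 1198 with equal array medians or 745 and 1360 with quantile normalisation, so that the share of higher calls moved from 86.8% to 68.1% and 64.6%. The lower calls numbered 382 with offset 64, 554 among rows brighter than the median row, 508 with the trend, 48 with the replicate block and 95 to 181 with 1 array left out. Higher calls fell to 618 with the block and to between 928 and 1357 with 1 array left out. Lower calls over the alternatives ran from 0 to 9 in the membrane list (4), 0 to 10 in the heme list (4), 1 to 5 in the iron list (3), 0 to 6 among regulators (0), 0 to 7 among other erythroblast genes (2), 5 to 9 among island macrophage markers (9) and 0 to 7 in the cell cycle list (0). Higher calls ran from 0 to 3 in the membrane list (2), and 6 neutrophil markers were called higher without PT replicate 4.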

Other observations

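The red cell genes Rhag, Rhd, Sptb and Epb42 stand among the brightest genes that fell on OPN. Of the 162 genes called lower, Rhag was second by mean signal, at 4522, behind the heme enzyme gene Cpox at 5773. All 4 were among the 10 brightest of the 162, with Ank1, Cpox and the iron exporter gene Slc40a1. The other 3 of these 10 were Usp7, Pttg1 and Lgmn, the gene of a lysosomal protease (-0.50, SE 0.07, adjusted p = 0.00216). Further down the list stood Slc6a9 (-0.32, SE 0.06, adjusted p = 0.0194), which encodes a transporter of glycine, the amino acid from which heme synthesis starts, and Uhrf1 (-0.31, SE 0.06, adjusted p = 0.0245), which maintains DNA methylation in dividing cells. Larger falls stood there too, such as those of the island macrophage markers Mrc1 (-0.79) and Vcam1 (-0.53). C1qc (-0.68), Fcna (-0.64), Cfp (-0.58), Apoe (-0.57) and Gpnmb (-0.48) also fell by more. These genes were named after their values were seen, and a fold difference is easier to measure in bright rows.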
